A study of Drosophila melanogaster with 16 samples.

Results

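The cytosolic ribosomal protein genes of Drosophila melanogaster encode the protein components of the ribosome that translates nuclear mRNA. The members were taken by name, as every protein-coding gene whose symbol is RpL or RpS followed by a digit, together with RpLP0, RpLP1, RpLP2 and sta. This gave 92 genes of the 13619 protein-coding genes and 17039 genes measured, 53 for the large subunit and 39 for the small subunit. Of these, 67 were treated as single-copy and 25 fell into 13 pairs of copies by name. A name does not establish a place in the ribosome, and RpL24-like and RpL7-like are related to yeast assembly factors. RNA was sequenced from pooled tissues of adult mated Canton-S females, all reared axenically. The groups were proventriculus (PV) of flies kept axenic (5 libraries), and PV (5 libraries), crop (3 libraries) and salivary gland (SG, 3 libraries) of flies given Lactiplantibacillus plantarum LpWF as adults. Canton-S is a wild-type strain. The age of the flies was not given in the sources used here. RNA of PV and crop was extracted with an RNeasy kit and depleted of ribosomal RNA before sequencing. SG RNA was extracted with TRIzol, and its mRNA was selected by the poly(A) tail. SG tissue, RNA extraction and library preparation therefore cannot be told apart. Nothing in the labels says that replicates came from separate cultures, so p-values measure the spread between these libraries, which may be technical.

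A ribosome carries its proteins in nearly fixed proportions, and their genes are transcribed in nearly every growing cell at levels among the highest of any gene. In Drosophila, loss of 1 copy of many of these genes gives the Minute phenotype of slow development and thin bristles. A few proteins have second genes, several of which are known from Drosophila as germline copies. Proteins of the large subunit line parts of the peptide exit tunnel and form the stalk that recruits translation factors. Proteins of the small subunit take part in decoding.

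Reads on genes ranged from 18186391 to 45500807 per library. Ribosomal RNA took 15.3 to 43.4% of reads in PV libraries, 6.14 to 10.5% in crop and 0.843 to 1.01% in SG, and exceeded 25% in replicates 4 and 5 of both PV groups. Coding TPM is the deposited TPM, an abundance corrected for transcript length, summed per gene and rescaled to a fixed total over protein-coding genes. Proventriculus markers summed to 11963 to 23978 coding TPM in PV, 603 to 3638 in crop and 0.189 to 2.52 in SG, as labelled. Salivary gland markers summed to 5126 to 7154 in SG and 62.5 to 119.8 elsewhere. LysP (5081, 7106 and 6281 in SG) made up nearly all of that SG sum, and sage was also highest in SG. Of the others, fkh was lower in SG (10.46 to 15.46) than elsewhere (27.65 to 85.32). CrebA was also lower in SG (5.689 to 7.723, elsewhere 11.19 to 54.97), and PH4alphaSG1 and PH4alphaSG2 were near 0 everywhere. Muscle markers summed to 1176 to 1575 coding TPM in PV, 16865 to 19269 in crop and 11.9 to 13.4 in SG, and digestive enzyme markers to 16463 to 56518, 815 to 7971 and 4.93 to 11.6. Tissue composition therefore differed between the groups, and its part in the results was not tested. In such pooled tissue, fewer cells of a type and less RNA per cell cannot be told apart.

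The share of the mRNA that the members made up differed between tissues, and the order of the tissues depended on what was counted. In PV of axenic flies they held 18.3, 19.1, 19.7, 17.4 and 17.5% of coding TPM, and in PV of LpWF flies 17.3, 19, 18.4, 18.1 and 17.1%. In crop they held 29.8, 26.0 and 27.9%, and in SG 3.70, 4.28 and 3.84%. The PV groups overlapped, all crop libraries lay above them and all SG libraries below. As a share of reads on coding genes, which does not correct for gene length, the means were 9.06% ± 0.599 (SD, n = 5) in axenic PV, 8.60% ± 0.315 (SD, n = 5) in LpWF PV, 9.14% ± 0.543 (SD, n = 3) in crop and 5.99% ± 0.222 (SD, n = 3) in SG. These read shares overlapped between PV and crop.

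A few very abundant products set much of this. The 10 highest genes outside the family held 36.4 to 49.0% of coding TPM in PV, 8.59 to 12.7% in crop and 87.7 to 89.2% in SG. When the 50 highest non-members of each group, 116 genes in all, were left out of the total, the members held 42.9% ± 0.870 (SD, n = 5) in axenic PV, 40.1% ± 1.65 (SD, n = 5) in LpWF PV, 36.3% ± 1.32 (SD, n = 3) in crop and 49.8% ± 0.719 (SD, n = 3) in SG. On this scale SG was highest and crop lowest, with no overlap of either with PV. By rank, 79 or 80 of the 92 members were among the 200 highest protein-coding genes in every library.

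**Figure D1:**
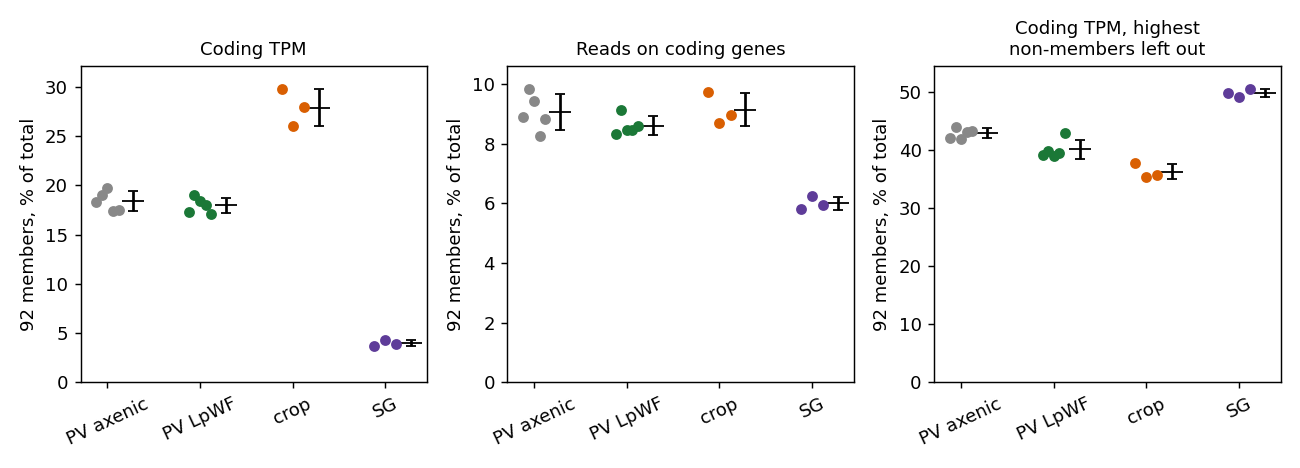
Share of the 92 cytosolic ribosomal protein genes in each library, as a percent of coding TPM (left), of reads on coding genes (middle) and of coding TPM after leaving out 116 abundant other genes (right). Points are libraries and the black bars are means with SD; crop was highest at 26.0 to 29.8% on the left and lowest at 35.3 to 37.8% on the right, where SG stood at 49.0 to 50.5%.

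RpL41 and RpL39 were the highest members by coding TPM. RpL41 (FBgn0066084, 2R from 24903416 to 24903935 in the Ensembl BDGP6 annotation) encodes the smallest ribosomal protein, and RpL39 (FBgn0023170, 2R from 24061853 to 24062431) a small protein of the exit tunnel. RpL41 stood at 19100, 20063, 19488, 19039 and 19623 coding TPM in LpWF PV, at 29645, 23990 and 29778 in crop and at 2655, 2620 and 2640 in SG. RpL39 stood at 11756 ± 413 coding TPM (SD, n = 5) in LpWF PV, 15307 ± 2357 (SD, n = 3) in crop and 3714 ± 220 (SD, n = 3) in SG. Their mean effective lengths of 70.2 and 41.2 bases were short, and a per-length value of so short a gene depends strongly on that estimate. RpS25, RpLP1 and RpL29 followed by the mean of the group means, with RpS25 at 3433 ± 140 (SD, n = 5) in LpWF PV. RpL23A, RpS13, RpL17, RpS2 and RpL4 were the lowest single-copy members. RpL4 stood at 1132 ± 97.3 coding TPM in LpWF PV (SD, n = 5), 1875 ± 196 in crop (SD, n = 3) and 287 ± 32.1 in SG (SD, n = 3). The members lie on all major chromosome arms, with 19 on 2L, 20 on 2R, 14 on 3L, 23 on 3R, 15 on X and 1 on chromosome 4.

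To compare members with one another, the level of each was divided by that of the median single-copy member in the same library, and this is called the relative level. Most members stayed close together. In axenic PV, LpWF PV, crop and SG, 64, 64, 63 and 61 of the 67 single-copy members had relative levels between 0.5 and 2. Within groups the coefficient of variation of the relative level had a median of 4.52% in axenic PV, 3.94% in LpWF PV, 5.14% in crop and 3.10% in SG. For coding TPM it was 7.58, 7.30, 8.30 and 8.74%. Replicates thus differed more in the total of the family than in its proportions. Across the 67 genes, log2 relative levels of the PV groups had a Pearson's r of 0.999 with each other, LpWF PV and crop 0.963, LpWF PV and SG 0.874, and crop and SG 0.815. These are correlations across genes, which are not independent replicates and share gene length and libraries, and they are given as a description.

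**Figure D2:**
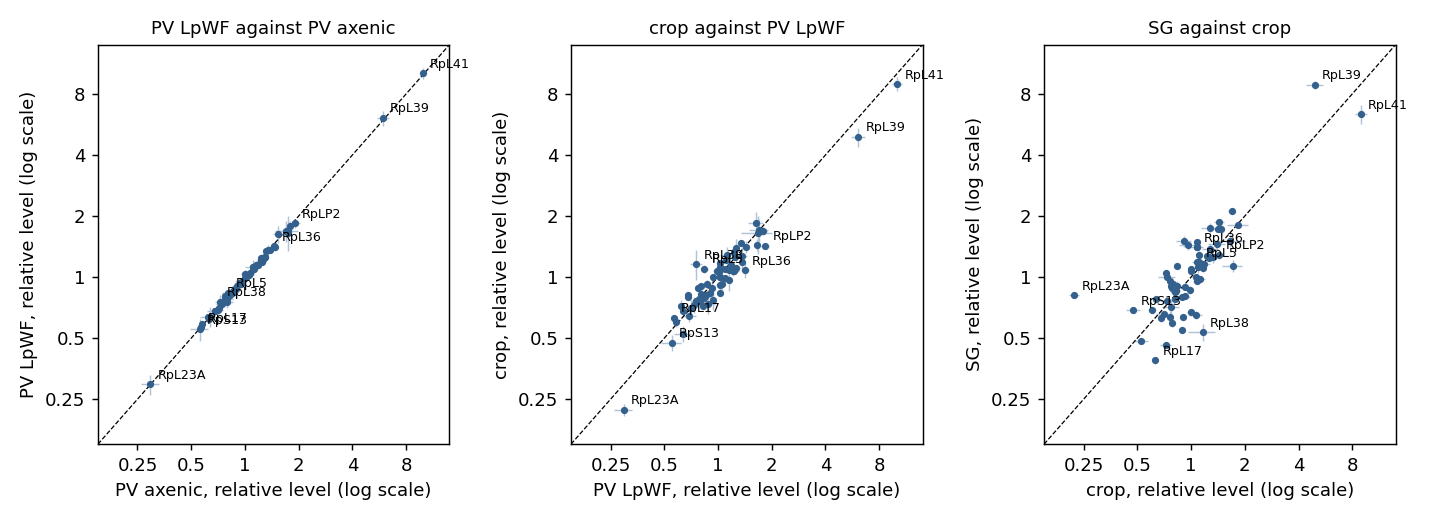
Mean relative level of the 67 single-copy members (median member of the library set to 1), one group against another, on log axes. Bars are SDs over 5 PV, 3 crop and 3 SG libraries; the PV groups lie on the dashed line of equality, while RpL23A, at 0.222 in crop and 0.813 in SG, lies farthest from it in the right panel.

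The PV comparison asks what LpWF in the adult gut did to these genes. All 84 members tested had a lower mean in PV of LpWF flies than in PV of axenic flies on the scale of TMM-normalized counts, by a small amount, and none was called. The log2 fold changes ran from -0.20 to -0.01 with a median of -0.14 (large subunit -0.14, small subunit -0.16). The median of all 9360 genes tested was 0.005, and 4562 of them had negative values. Members varied together between libraries of a group, so the 84 values are not independent. With edgeR's quasi-likelihood test 0 of 84 members had an adjusted p under 0.05, beside 0.0107% of all genes in either direction. DESeq2 also called 0. At an unadjusted p under 0.05 there were 28 members, beside 9.7% of all genes.

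Among the 4 members with the lowest p were RpS23, RpL14 and RpL36. RpS23 (FBgn0033912, 2R from 14215096 to 14216627), a protein of the decoding centre, stood at 3278, 3553, 3642, 3362 and 3374 coding TPM in axenic PV and at 3049, 3247, 3397, 3295 and 2926 in LpWF PV. The groups overlapped. Its log2 fold change was -0.18 ± 0.060 (SE) with an adjusted p of 0.458 by edgeR. For RpL14 and RpL36 the log2 fold changes were -0.18 and -0.19, and the adjusted p values 0.473 and 0.486. In coding TPM no member separated the PV groups in either direction, where 1.7% of 8935 coding genes did so upward and 0.313% downward.

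The size of the shift moved with the share of ribosomal RNA in the libraries. Among libraries under 25% ribosomal RNA, 3 in each group, 83 of 84 members were lower and the median was -0.22. Among those over 25%, 2 in each group, 62 were lower and the median was -0.03. The part of this share in the result was not tested. The direction was the same for most members on the other scales, with 74 of 84 lower in coding TPM (median -0.04), 82 in coding TPM without the abundant genes (median -0.11) and 80 as a share of coding reads (median -0.07).

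Other genes of translation were taken from lists. None of their genes was called in PV. Of 73 mitochondrial ribosomal protein genes tested, 63 had positive values, with a median log2 fold change of 0.18. Of 28 nucleolar and ribosome assembly genes, 24 had positive values, with a median of 0.15. Among 7 elongation factors 6 had negative values (median -0.11), among 31 initiation factors 19 (median -0.01) and among 20 cytosolic aminoacyl-tRNA synthetases 4 (median 0.07).

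**Figure D3:**
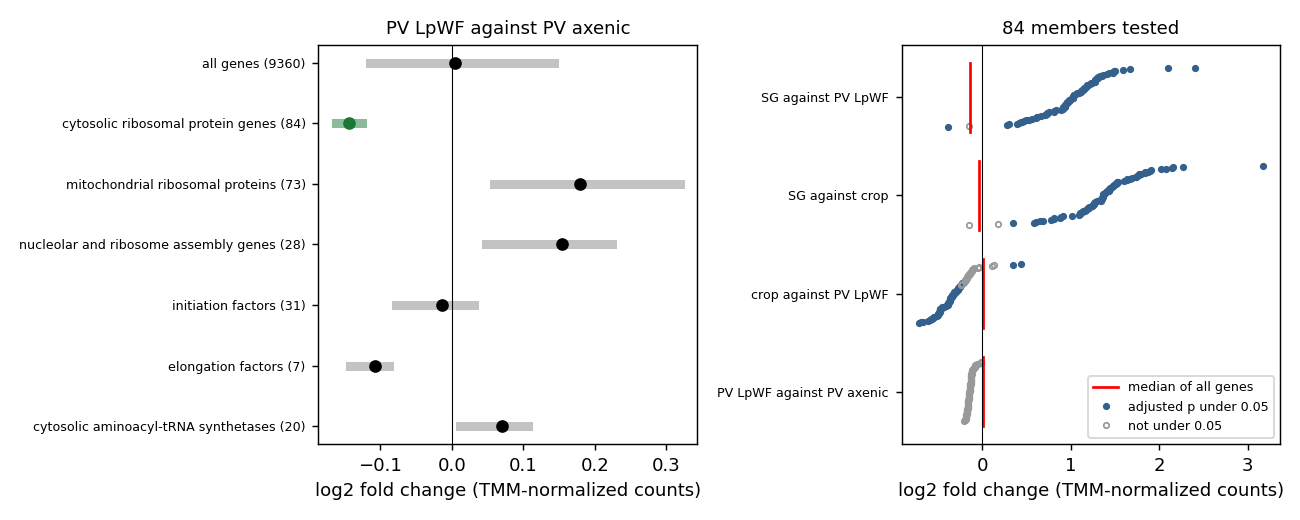
Left, log2 fold changes in PV of LpWF against axenic flies by gene list, with the number of genes tested in brackets; points are medians and bars span the middle 50% of genes. Right, each of the 84 members tested in 4 comparisons, filled where the adjusted p was under 0.05, with the median of all genes as a red line; on this TMM scale all 84 members were below 0 in PV, 80 in crop, and 1 and 2 in the SG comparisons, while in coding TPM all 84 were above 0 in crop and below 0 in the SG comparisons.

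The crop stores food, and its comparison with PV was made within LpWF flies. On TMM-normalized counts 57 of 84 members were lower in crop and 2 higher, but in coding TPM 81 of 84 were higher in every crop library than in every PV library and none lower. The first count stands beside 25.5% of all 9713 genes called lower and 26.1% called higher, 51.6% in either direction. The second stands beside 69.7% of 9218 coding genes higher and 8.91% lower. At an unadjusted p under 0.05 there were 65 members, beside 57.7% of all genes. By subunit, 28 of 50 large subunit members were called lower and 2 higher (median -0.26), and 29 of 34 small subunit members lower (median -0.37), on TMM counts. The median log2 fold change of the members was -0.32 by TMM, 0.64 in coding TPM and -0.13 in coding TPM without the abundant genes. For all genes the medians on these scales were 0.01, 0.99 and 0.22, each above that of the members. A change of scale moves all genes nearly alike, so these are not 3 separate results. The call count also depended on single libraries, with 38 members called without crop replicate 3. Without the PV libraries over 25% ribosomal RNA it was 53.

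On the TMM scale the falls called were led by RpL23A (-0.72 ± 0.12, SE), RpL36 (-0.69 ± 0.10), RpLP2 (-0.67), RpL39 (-0.61 ± 0.11), RpS30 (-0.59 ± 0.08) and RpS19a (-0.58 ± 0.08). In coding TPM RpL36 (FBgn0002579, X from 628338 to 629483) stood at 2672, 2938, 2817, 2547 and 2676 in LpWF PV and at 3859, 2926 and 3278 in crop. The groups overlapped in 1 crop library, and the fall on the TMM scale is no fall in coding TPM. RpL23A and RpS2 were the other members whose coding TPM overlapped.

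RpL38 and RpL24-like were the 2 members called higher in crop on TMM counts. RpL38 (FBgn0040007, 2R from 4515388 to 4516458) encodes a large subunit protein whose loss in mice alters body patterning. It stood at 1340, 1460, 1664, 1457 and 1388 coding TPM in LpWF PV, 3760, 2845 and 4228 in crop, and 226, 227 and 216 in SG. Crop was above PV in every library and SG below. The crop against PV log2 fold change was 0.35 ± 0.11 (SE) with an edgeR adjusted p of 0.0282, and the call was lost without PV LpWF replicate 1 or 2 or crop replicate 1 or 3, with an adjusted p of up to 0.144.

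A comparison of members with one another does not turn on these scales. With library size set to the summed reads of the 67 single-copy members, a scaling chosen after the values were seen, 9 members were called higher and 7 lower in crop than in LpWF PV, beside 60.3% of all genes called in either direction. RpL24-like (0.74), RpL38 (0.66 ± 0.12, SE), RpL7-like (0.45), RpL5 (0.41 ± 0.08), RpL37A (0.28), RpS3 (0.26), RpLP0 (0.21), RpL32 (0.20) and RpS4 (0.20) were higher. RpL23A (-0.41), RpL36 (-0.39), RpLP2 (-0.36), RpL39 (-0.30), RpS30 (-0.28), RpS19a (-0.27) and RpS21 (-0.25) were lower. Without crop replicate 3 there were 10 calls in place of 16.

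The stalk proteins did not move as a unit. RpLP0 (FBgn0000100) anchors the stalk, and RpLP1 (FBgn0002593) and RpLP2 (FBgn0003274) are its acidic arms. The relative level of RpLP0 was 0.612, 0.632, 0.615, 0.629 and 0.618 in LpWF PV, 0.707, 0.774 and 0.679 in crop, and 0.473, 0.455 and 0.455 in SG, with no overlap between these groups. That of RpLP2 was 1.84 ± 0.096 (SD, n = 5) in LpWF PV, 1.43 ± 0.030 (SD, n = 3) in crop and 1.29 ± 0.054 (SD, n = 3) in SG. RpLP1 stood at 1.63 ± 0.16, 1.84 ± 0.25 and 1.81 ± 0.069, and its family-scaled change passed the test in none of the crop and SG comparisons.

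In SG nearly every tested member was higher on TMM-normalized counts and all 84 were lower in coding TPM. In coding TPM without the 116 abundant genes, 70 of 84 were higher than in crop (median log2 difference 0.43) and 66 of 84 higher than in LpWF PV (median 0.34). Against crop 82 of 84 members were called higher on counts and 0 lower, beside 36.6% of all 9064 genes higher and 39.5% lower, 76.1% in either direction. At an unadjusted p under 0.05 there were 82 members, beside 77.5% of all genes, and DESeq2 called 81 higher and 1 lower. The median was 1.36 by TMM and -2.85 in coding TPM, where all 84 members were lower in every SG library, beside 96.7% of 8655 coding genes lower and 1.51% higher. Against LpWF PV 82 were called higher and 1 lower, beside 35.2% and 41.3% of 9487 genes, 76.5% in either direction. At an unadjusted p under 0.05 there were 83, beside 78.2% of all genes. The median was 1.03 by TMM and -2.16 in coding TPM, where again all 84 were lower, beside 95.1% of 9033 coding genes lower and 1.8% higher. Medians of all genes in coding TPM were -4.16 against crop and -3.18 against PV.

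Against the family total, RpL23A had the largest difference of SG above crop and above LpWF PV, although its SG level stayed under the median single-copy member. It encodes a protein at the mouth of the exit tunnel that the signal recognition particle contacts, and it lies on 3L from 1666288 to 1668654 (FBgn0026372). It stood at 490, 580, 558, 656 and 572 coding TPM in LpWF PV, at 763, 666 and 639 in crop and at 313, 393 and 318 in SG. SG was below all other libraries on that scale. As a relative level it stood at 0.261, 0.276, 0.280, 0.339 and 0.325 in LpWF PV, 0.232, 0.228 and 0.206 in crop, and 0.816, 0.838 and 0.784 in SG, above all others.

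On TMM counts RpL23A was higher in SG than in crop by 3.18 ± 0.096 (SE) on the log2 scale, with an edgeR adjusted p of 2.9e-09. Against the family total the difference was 1.80 ± 0.095 (adjusted p = 2.2e-07), and from LpWF PV 1.39 ± 0.12 (adjusted p = 1.7e-06). RpL23A shares 421 exon bases on the same strand with Uhg7, a snoRNA host gene, which took up to 0.278% of their summed reads. Summing both genes gave 1.80 from crop.

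RpL22 lay at the other end. RpL22 (FBgn0015288, X from 762560 to 765130) encodes a large subunit protein. It stood at 1326, 1553, 1364, 1310 and 1208 coding TPM in LpWF PV, at 2564, 2185 and 2312 in crop and at 100, 141 and 110 in SG. Its relative level was 0.699 ± 0.026 (SD, n = 5), 0.758 ± 0.020 (SD, n = 3) and 0.277 ± 0.021 (SD, n = 3). SG was below every other library on both scales. On TMM counts RpL22 was the 1 member called lower in SG than in LpWF PV, by -0.38 ± 0.11 (SE, edgeR adjusted p = 0.00716), and against crop it was -0.15 ± 0.094 (adjusted p = 0.180). The family-scaled difference from crop was -1.52 ± 0.10 (adjusted p = 8.1e-07) and from LpWF PV -1.40 ± 0.13 (adjusted p = 2.3e-06), about as far from 0 as that of RpL23A from LpWF PV.

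RpL22 shares 377 exon bases on the same strand with lncRNA:CR42491, which held 10.2 to 15.2% of their summed reads in SG and 3.04 to 4.91% elsewhere. Summed with it, the family-scaled difference from crop was -1.38 and from LpWF PV -1.27. On TMM counts the sum differed by -0.26 from LpWF PV (edgeR adjusted p = 0.0356) and by -0.005 from crop (adjusted p = 0.964).

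After RpL23A, the largest values of SG above crop on TMM counts were RpL34a (2.27), RpL39 (2.16), RpS13 (2.15), RpL34b (2.08) and RpS3A (2.02). Against LpWF PV the same 5 followed RpL23A, with RpL34a at 2.10, RpL34b at 1.68, RpS13 at 1.59, RpS3A at 1.5 and RpL39 at 1.49. All were lower in coding TPM. Both comparisons use the same SG libraries. RpS3A, the only member on chromosome 4 (FBgn0017545, from 65225 to 67207), had relative levels of 1.09, 0.966, 1.02, 0.979 and 1.09 in LpWF PV, 0.911, 0.819 and 1.00 in crop, and 1.57, 1.40 and 1.53 in SG, the last above all others.

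Against the family total 22 members were called higher and 21 lower in SG than in crop, beside 86.2% of all genes called, and 19 higher and 20 lower than in LpWF PV, beside 82.1%. After RpL22 the members furthest below crop on the family scale were RpL38 (-1.20), RpS15Ab (-1.03), RpL3 (-0.78), RpL17 (-0.77), RpS4 (-0.72) and RpLP0 (-0.70). RpL3 reaches close to the peptidyl transferase centre. All of these had TMM values above 0 against crop, of which RpL38 was not called (0.18, adjusted p = 0.266).

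**Figure D4:**
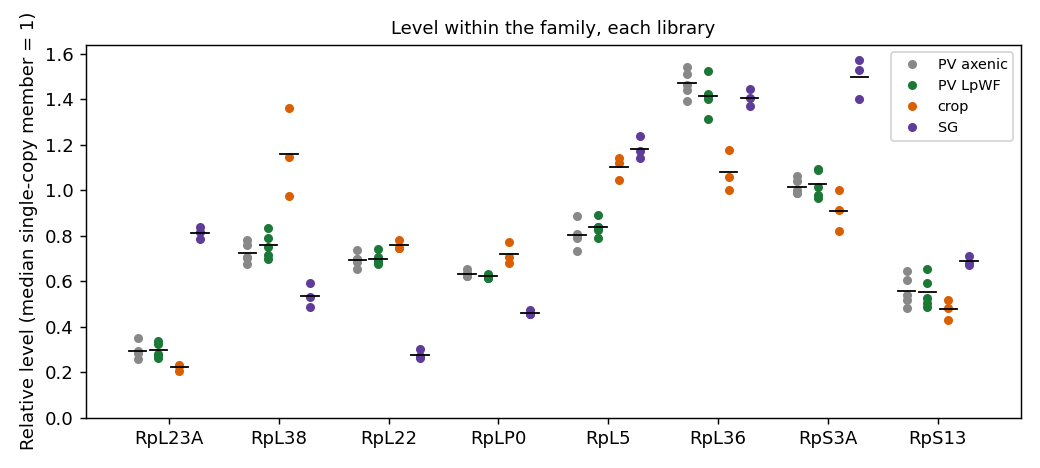
Relative level of 8 members in every library, with the median single-copy member of the library at 1; points are libraries and lines are group means. RpL23A rose from 0.206 to 0.339 in PV LpWF and crop to 0.784 to 0.838 in SG, and RpL22 stood at 0.261 to 0.300 in SG.

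Other members were taken for their roles. RpS6, the substrate of S6 kinase, had relative levels of 0.873 ± 0.019 (SD, n = 5) in LpWF PV, 0.921 ± 0.049 (SD, n = 3) in crop and 0.810 ± 0.029 (SD, n = 3) in SG, and its family-scaled change was not called in these comparisons. RpS27A and RpL40 are made as fusions with ubiquitin. RpS27A stood at 1.34 ± 0.045, 1.47 ± 0.052 and 1.72 ± 0.13, and RpL40 at 0.825 ± 0.024, 0.723 ± 0.020 and 1.04 ± 0.019 in the same order. RpL40 was called higher in SG than in crop against the family total (0.46, adjusted p = 0.000742). The gene sta, which encodes the small subunit protein known in other animals as the laminin receptor homologue, stood at 1.03 ± 0.031, 0.996 ± 0.043 and 0.677 ± 0.020, and was called lower in SG than in crop against the family total (-0.60, edgeR adjusted p = 0.000112).

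Other translation genes were counted from the same lists. In crop against LpWF PV, 16 of 20 cytosolic aminoacyl-tRNA synthetases were called lower on TMM counts, with a median of -0.80, beside 25.5% of all genes. Against the family total 12 of 20 were called lower and 2 higher, beside 1669 and 4184 of 9713 genes. Of 73 mitochondrial ribosomal protein genes, 13 were called higher and 2 lower on TMM counts (median 0.12), beside 26.1% and 25.5% of all genes. In SG against crop 67 of these 73 genes were called higher on TMM counts (median 1.11), beside 36.6% of all genes. So were 26 of 31 initiation factors (median 0.89), 17 of 28 nucleolar and assembly genes (median 0.46) and 12 of 20 synthetases (median 0.46). In SG against LpWF PV the first 3 lists had 70, 27 and 17 genes called higher, beside 35.2% of all genes. The synthetases differed there, with 4 called higher and 8 lower (median -0.25), beside 41.3% of all genes lower. Against the family total, 7 mitochondrial genes were called higher and 31 lower in SG than in crop (median -0.26). For all 9064 genes these counts were 889 and 6923 (median -1.42). Against LpWF PV on that scale 24 were higher and 9 lower (median 0.21), beside 1016 and 6773 of 9487 genes (median -1.15). Of the 20 synthetases, 17 were called lower than in crop and 19 lower than in LpWF PV on that scale, and none higher.

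For 8 of the 13 pairs the second gene was near 0 in all tissues, with RpS28b in a pair with each of RpS28a and RpS28-like. RpL10Aa and RpS28a had 0 reads in all 16 libraries, which allows at most 0.000707% of the reads of RpL10Aa with RpL10Ab and 0.000830% of those of RpS28a with RpS28b, as 3 reads over all libraries. RpL22-like had 1 read, RpS19b 1, RpL37-2 2, RpS28-like 7, RpS10a 13 and RpS5b 71. RpS5b, the highest of these copies by share, held 0.0134% of its pair's reads. These limits cover counting error only. In Drosophila RpL22-like, RpS5b, RpS19b and RpS10a are known as copies enriched in germ cells, and germline markers summed to at most 0.918 coding TPM.

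Apart from RpL22 and RpS19a, described above, the partners of these silent copies were RpS28b, RpL37-1, RpL10Ab, RpS5a and RpS10b. RpS28b stood at 2871 ± 163 coding TPM in LpWF PV (SD, n = 5), RpL37-1 at 2731 ± 149, RpL10Ab at 1808 ± 163, RpS5a at 1735 ± 138 and RpS10b at 1064 ± 77.6. These 5 were higher in crop than in LpWF PV in every library by coding TPM, beside 69.7% of 9218 coding genes. On TMM counts RpS5a (-0.25), RpS10b (-0.37) and RpS28b (-0.32) were called lower, beside 25.5% of all genes. Against the family total RpS10b was higher in SG than in crop (0.52 ± 0.084, edgeR adjusted p = 0.000329) and RpS5a lower (-0.46 ± 0.083, adjusted p = 0.000612), and RpL10Ab, RpL37-1 and RpS28b were not called.

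In 5 pairs both copies were measured above this level. RpL34a (FBgn0039406) held 15.5, 15.2, 17.2, 15.4 and 14.9% of the coding TPM of RpL34a and RpL34b in LpWF PV, 17.2, 18.4 and 18.7% in crop, and 22.2, 21.5 and 22.2% in SG. SG was above every other library, and the lowest crop library lay just above the highest PV library. In axenic PV the share was 14.6% ± 0.417 (SD, n = 5). The sum of the pair was higher in SG than in crop by 2.11 ± 0.086 on the log2 scale of TMM counts (edgeR adjusted p = 1.7e-08), and lower in coding TPM.

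RpL24-like (FBgn0037899) is named for its likeness to RpL24 and corresponds to a yeast protein that acts in assembly of the large subunit. It held 7.11 to 9.76% of the pair in LpWF PV, with a median of 9.25%, and 7.22 to 8.40% in axenic PV. In crop it held 13.9 to 15.4% and in SG 12.3 to 13.8%. Crop and SG lay above all PV libraries. It was called higher in crop than in LpWF PV by 0.44 ± 0.093 (SE, adjusted p = 0.00346), while RpL24 was lower by -0.37 ± 0.091 (adjusted p = 0.00774), both on TMM counts. In coding TPM both were higher in crop, at 381 ± 50.3 against 143 ± 18.5 for RpL24-like and 2228 ± 157 against 1457 ± 57.0 for RpL24 (SD, n = 3 and n = 5).

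RpS15Ab (FBgn0033555) held 4.28 to 5.69% of its pair in LpWF PV, 3.97 to 4.65% in crop and 2.44 to 3.02% in SG, where it was below every other library. Against the family total it was lower in SG than in crop by -1.03 ± 0.14 (edgeR adjusted p = 0.000107) and RpS15Aa by -0.37 ± 0.090 (adjusted p = 0.00396). Reads assigned to RpS15Aa were not whole numbers (31811.3 in axenic PV replicate 1), so some were divided with another gene. That gene was not identified, and the split between the copies is uncertain to that extent. RpL7-like (FBgn0032404), related to a yeast assembly factor, held 2.42 to 3.31% beside RpL7 in LpWF PV, 3.33 to 3.67% in crop and 2.79 to 3.13% in SG. It overlaps 1771 exon bases of CG34164 on the same strand, which was given 0 reads in all libraries.

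RpS14a and RpS14b lie next to each other on X and encode the same protein. RpS14b held 45.8% ± 1.06 (SD, n = 5) of their coding TPM in axenic PV, 46% ± 1.47 (SD, n = 5) in LpWF PV, 46.7% ± 1.31 (SD, n = 3) in crop and 44.8% ± 1.21 (SD, n = 3) in SG. These ranges overlapped. Reads of such similar copies were divided by Salmon, so that each copy is uncertain and the sum less so. The sum was lower in crop than in LpWF PV by -0.48 ± 0.096 (edgeR adjusted p = 0.00258) on TMM counts, and higher in coding TPM.

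**Figure D5:**
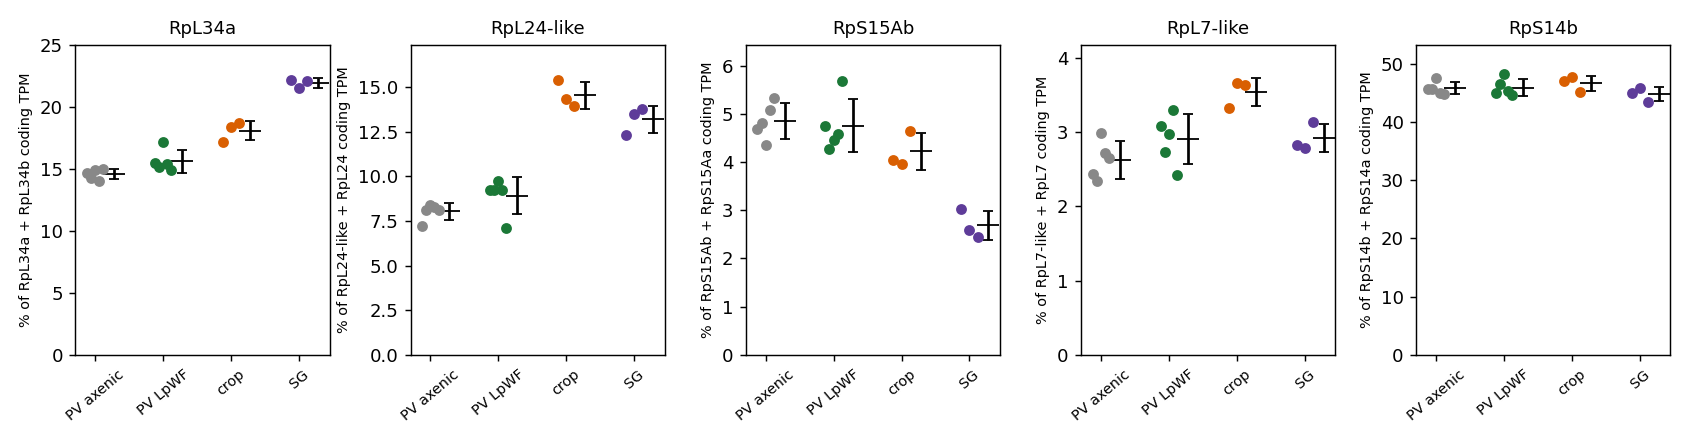
Share of the coding TPM of 5 pairs held by the copy named above each panel, by library; points are libraries and black bars are means with SD. RpL34a was highest in SG (21.5 to 22.2%), RpL24-like in crop and SG (12.3 to 15.4%), RpS15Ab lowest in SG (2.44 to 3.02%), and RpS14b overlapped in all groups.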

How the data were processed

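RNA was measured in 16 libraries, and those with the same label were treated as replicates. The authors assigned reads to transcripts with Salmon on the BDGP6 build and deposited estimated counts, not normalized between libraries, and TPM scaled to a fixed total over all transcripts. The effective length deposited with them is in bases. No sequences of the genes were used here.

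Values of 33704 transcripts were added up by gene using the Ensembl 115 annotation. The 271 transcripts with no gene there held 0.128 to 0.257% of reads and were left out. Counts were rounded and tested with edgeR 4.0.16 on R 4.3.3 (TMM, filterByExpr, robust quasi-likelihood F tests), with Benjamini-Hochberg adjustment over all genes tested, and calls at an adjusted p under 0.05. Each comparison used the libraries of its own groups. Of the 92 members 84 passed the filter in each fit, and the other 8 were at or near 0 throughout. Members, pairs and lists were chosen with earlier results of these data known. Named members were all pair copies, the 6 largest called changes in each direction per comparison (the 4 lowest p in PV), the 5 highest and 5 lowest single-copy members, and 9 chosen by role. Of the members with the lowest p in PV, 1 is not reported here. Members named from the family-scaled fits, RpL3, RpL17, RpS4, RpL5 and others, were chosen after their values were seen.

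Libraries of a group differed by at least 21.8 times the counting variance per gene, so none was a copy. On simulated data edgeR recovered 184 of 199 changed genes for the PV comparison, 176 of 200 for crop against PV, 163 of 197 for SG against crop and 172 of 199 for SG against PV. Recovery of changes as small as those of the members in PV (log2 fold changes of -0.20 to -0.01) was not tested. Alternatives were DESeq2 1.42.0 and its size factors, filters at 1 count in any and 10 in every library, effective length offsets, protein-coding genes only, non-robust dispersions, a replicate block, 1 fit of all libraries, ribosomal RNA splits, other scales and leaving out each library. Scaling to the family total, sums with overlapping genes, and sums without RpL41 and RpL39 were added after seeing the data. Of the members, 31 share exon bases with another gene. The lists matched 7 elongation factors, 31 initiation factors, 20 synthetases, 28 nucleolar and assembly genes and 73 mitochondrial ribosomal protein genes. Python 3.11.15, pandas 2.3.3, numpy 2.4.6 and matplotlib 3.10.9 were used for other values.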

Additional observations from a re-analysis of the deposited data

Results flagged for a closer look

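In 62 groups of 5 PV libraries tested, 1 library stood apart from the other 4 by Dixon's test in 4, where chance gives about 1 in 20. PV LpWF replicate 5 had the members at 43.0% of coding TPM without the abundant genes, with the others at 39.0 to 39.8%, and RpL24-like at 7.11% of its pair, with the others at 9.24 to 9.76%. PV LpWF replicate 3 had RpL34a at 17.2% of its pair, with the nearest at 15.5%. PV axenic replicate 1 had RpL24-like at 7.22%, with the nearest at 8.11%.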

How the results depend on the processing

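No result reversed direction under the alternatives run on its own scale. The PV count was 0 under all 22 alternatives, and the PV median ran from -0.22 to -0.028, the last among libraries over 25% ribosomal RNA. For crop against LpWF PV, 59 members were called, 38 with a replicate block and 38 to 56 with 1 library left out, and 75 at most. Its family-scaled count of 16 became 7 with a replicate block and 10 to 18 with 1 library left out. The replicate block moved the family-scaled count for SG against LpWF PV from 39 to 25. The median for SG against crop (1.36) was 1.28 with DESeq2 size factors and with DESeq2, and 1.15 at 10 counts in every library, where that against LpWF PV was 0.86. The causes were not tested. The member share of axenic PV, LpWF PV, crop and SG was 7.44, 7.76 and 13.6% of deposited TPM in the first 3 (SG stayed within its replicate spread), 42.9, 40.1, 36.3 and 49.8% without abundant genes, 9.06, 8.60, 9.14 and 5.99% of coding reads, and 15.3, 14.9, 23.6 and 3.31% without RpL41 and RpL39. Same-numbered libraries had correlations of deviations from -0.0887 to 0.355, and no comparison had every library correlate best with its own number. Within PV these correlations were 0.0154 to 0.355, and those of differently numbered libraries -0.222 to 0.380. Replicates 4 and 5 of both PV groups also shared more than 25% ribosomal RNA. The labels do not say whether the numbers mark pairs or batches, and these values do not settle it. Of the alternative values of named log2 fold changes, 1543 kept their call, 46 lost and 25 gained it, among them RpL41 in SG against LpWF PV and RpS15Aa in crop. Depth limits chiefly the near-silent copies, and promoter and protein features were not analysed here.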
